A study of Homo sapiens with 12 samples.

Results

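The 10 genes described here are noncoding host genes of small nucleolar RNAs (snoRNAs): SNHG1, SNHG3, SNHG5, SNHG6, SNHG7, SNHG8, SNHG12, SNHG15, GAS5 and ZFAS1. They were chosen by name from the 56537 gene names of the deposited transcript table. Their transcripts are those whose splice sites all match the reference annotation (class code =, 141 transcripts) or share at least 1 splice site with it (class code j, 40 transcripts). That gave 181 of the 286562 transcripts in these classes. The level of a gene was the sum of its transcripts in a library.

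A snoRNA host gene carries snoRNAs inside its introns, and the snoRNA is trimmed out of the intron once splicing has released it. Box C/D snoRNAs (SNORD) guide 2′-O-methylation and box H/ACA snoRNAs (SNORA) guide pseudouridylation, mostly of ribosomal RNA. The spliced transcripts of these 10 hosts come from genes annotated as long noncoding. Many such transcripts start with a 5′ terminal oligopyrimidine (5′TOP) run, the feature that messages of ribosomal proteins carry, and many are removed by nonsense-mediated decay once ribosomes engage them.

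The cells were HCT116, an established human colorectal cancer line. They were harvested at 21% oxygen (0 h) or after 1, 2 or 24 h in 1% O2, with hypoxia begun 24 h after plating. At each of the 4 time points 3 libraries of poly(A) RNA were sequenced strand-specifically with paired reads, 12 libraries in all. All samples are of 1 cell line, and whether the 0 h and 24 h cells were harvested at the same time after plating is not stated in the sources used here, so hypoxia cannot be told apart from longer culture. The series calls the replicates biological without more detail, and p-values measure the spread between these libraries only.

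Levels are in FPKM, fragments scaled by transcript length and by the mapped fragments of the library, so levels of different genes can be compared per length. Read counts were not analysed here and no counting interval is given; the spread of the 3 libraries is the measure of precision. In this bulk RNA, fewer cells that express a gene and less RNA per cell cannot be told apart. All 6 epithelial markers checked (EPCAM, KRT8, KRT18, KRT19, CDH1 and CDX2) had a mean of at least 1 FPKM. The summed level of the 6 markers of other cell types was 1.58 to 2.49 FPKM in the libraries of 0 to 2 h and 5.75 to 8.79 FPKM at 24 h, nearly all of it COL1A1 (mean 3.21 FPKM), while PECAM1 was at 0 in every library. The part of that rise in the results at 24 h was not tested. Transcripts under 300 bases carried much of the FPKM of a library, between 57.0% and 70.4% at 0 h, 69.0% and 84.1% at 1 h, 74.5% and 85.9% at 2 h and 64.9% and 87.6% at 24 h.

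RefSeq places 36 snoRNAs within the 10 hosts, 25 of them SNORD and 10 SNORA, with 1 entry of neither name in SNHG1. GAS5 holds 11, SNHG1 9, SNHG12 4 and ZFAS1 3, while SNHG3, SNHG5 and SNHG7 hold 2 each and SNHG6, SNHG8 and SNHG15 hold 1 each. A snoRNA from each of 4 hosts is shown, because these intronic RNAs are what defines the group. They are SNORD78 in GAS5 (GRCh37 chr1:173834760-173834824, minus strand), SNORD99 in SNHG12 (chr1:28905261-28905334, minus strand), SNORD12C in ZFAS1 (chr20:47895477-47895565, plus strand) and SNORA73B in SNHG3 (chr1:28835071-28835274, plus strand). Capitals mark the core of the C box and the D box in the SNORDs and the ACA box near the 3′ end of the SNORA.
SNORD78: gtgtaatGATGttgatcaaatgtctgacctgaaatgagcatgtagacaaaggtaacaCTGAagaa
SNORD99: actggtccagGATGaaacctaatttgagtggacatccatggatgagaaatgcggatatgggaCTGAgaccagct
SNORD12C: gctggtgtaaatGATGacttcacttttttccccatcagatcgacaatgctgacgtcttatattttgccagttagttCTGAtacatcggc
SNORA73B: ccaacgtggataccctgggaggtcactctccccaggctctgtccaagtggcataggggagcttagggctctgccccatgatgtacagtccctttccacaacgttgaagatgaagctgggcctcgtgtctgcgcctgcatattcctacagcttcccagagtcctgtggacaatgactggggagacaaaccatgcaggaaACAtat

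The start sites are shown because many snoRNA hosts are known, like ribosomal protein genes, to begin with a 5′TOP run. Each window is from the RefSeq promoter table (GRCh38.p14), was matched letter for letter to GRCh37, and holds 10 letters before the start and 20 from it, as in chr20:47895169-47895198 for ZFAS1. Capitals mark the longest run of at least 5 letters that are C or T, on the strand of the gene, that covers the start or begins within 5 letters after it; in SNHG1 a shorter run covers the start and the marked one begins after it. This definition was set after the letters were seen.
SNHG1: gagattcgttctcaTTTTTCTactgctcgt
SNHG3: gtgagtttctgaTTCTCTaactgcgcatgc
SNHG5: gcacttcggTCTTTTacgtcggccttcgcg
SNHG7: ccttctcgTCCTCTgcgtgcgccggaggct
SNHG8: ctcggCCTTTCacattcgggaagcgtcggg
SNHG12: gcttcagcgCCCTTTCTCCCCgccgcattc
GAS5: tcatgaattcagatgtgtttattttggagc
ZFAS1: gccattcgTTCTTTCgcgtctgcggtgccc
By this definition 7 of the 8 hosts with an entry held a run, as did 8180 of the 35116 promoters in the table (23.3%). Since the definition was set on these letters, the shares are a description and are not compared. SNHG6 and SNHG15 had no entry. The RefSeq start of GAS5 lies upstream of the first base of its most abundant transcript in these cells. At that base (chr1:173837108-173837137, minus strand) the letters do hold such a run, with the same 10 letters before the start. No other host was looked at from a second start.
GAS5, most abundant transcript: accatactgTCTTTTCgaggtaggagtcga

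The hosts were abundant RNAs. At 0 h they stood between percentiles 75.0 and 98.1 of the 16680 genes tested, those above 0.5 FPKM in at least 3 libraries. SNHG6 was the highest (347 ± 27.6 FPKM, SD, n = 3), followed by GAS5 (206 ± 7.20), SNHG1 (180 ± 26.4) and SNHG8 (176 ± 8.47). SNHG5 (121 ± 9.55) and ZFAS1 (119 ± 6.91) came next, then SNHG7 (72.1 ± 10.1), SNHG12 (65.4 ± 4.59), SNHG15 (35.1 ± 5.17) and SNHG3 (26.5 ± 1.68). Among neighbours in this order, the libraries of GAS5 and SNHG1, of SNHG1 and SNHG8, of SNHG5 and ZFAS1, and of SNHG7 and SNHG12 overlapped. At 24 h SNHG1 had moved from the third to the sixth place and ZFAS1 from the sixth to the fourth, SNHG3 and SNHG15 had changed places, and the libraries of ZFAS1 overlapped there with those of SNHG8 and of SNHG5, as did those of SNHG5 with SNHG1. The summed level of the 10 hosts was 1348 ± 39.7 FPKM (SD, n = 3) before hypoxia, then 1449 ± 62.0 after 1 h, 1439 ± 17.3 after 2 h and 1458 ± 221 after 24 h.

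**Figure D1:**
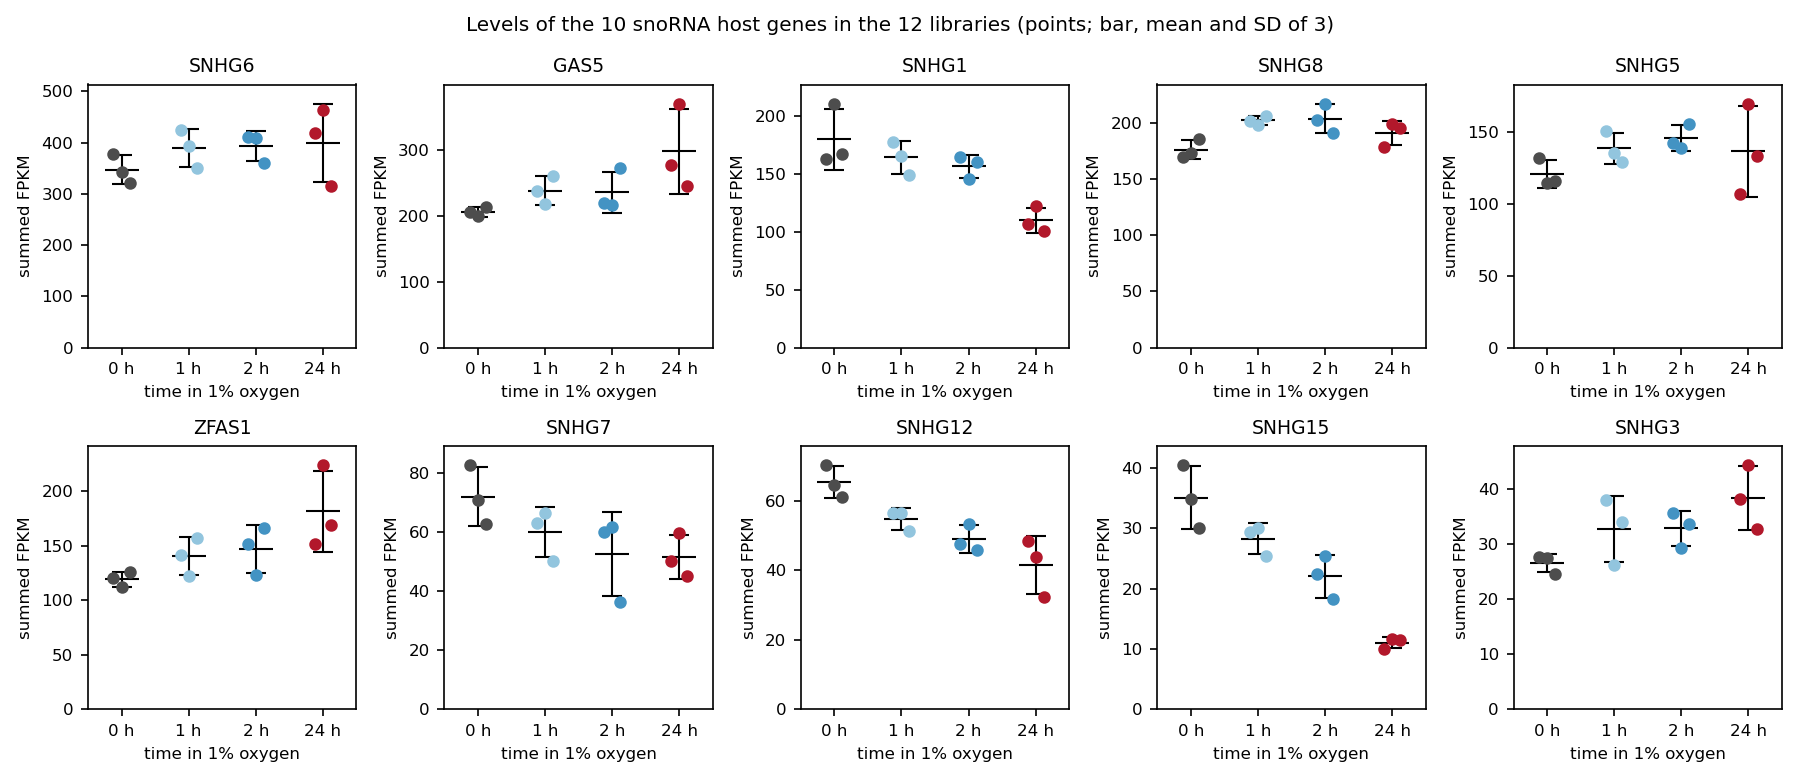
Level of each host gene (summed FPKM, linear axis from 0) in the 12 libraries by time in 1% O2; points are libraries and bars the mean and SD of 3. SNHG15 lies at 9.93 to 11.6 FPKM at 24 h, below its 3 libraries of every earlier time point, while GAS5 reaches 370 FPKM in 24 h replicate 2 (values as deposited; under TPM over all transcripts, a rescaling of each library to the same total, all 10 hosts are lower at 24 h).

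After 24 h of hypoxia the 10 hosts had moved in both directions, and SNHG15 was the host that changed most. SNHG15, SNHG1 and SNHG12 fell, and ZFAS1 and GAS5 rose, in limma fits on log2(FPKM + 0.5) at an adjusted p under 0.01. So 2 of 10 rose and 3 of 10 fell, while among all genes tested 18.3% rose and 23.2% fell (41.5% in either direction). With the further requirement of an absolute log2 fold change above 1, only SNHG15 was called (lower), against 8.76% of all genes called higher and 9.51% called lower, or 18.3% together. The 3 libraries of 24 h lay above all 3 of 0 h for 3 hosts and below them for 4, as against 27.6% and 32.8% of all genes (60.4% together). These shares are near the background, so the counts are no result about the hosts as a group. The median log2 fold change of the 10 was 0.13, beside -0.05 for all genes. Without 24 h replicate 2 it was 0.026, beside -0.06, with 5 of 10 hosts above 0 in place of 6. After each library was rescaled to the same total over its transcripts of at least 300 bases, the median was 0.043, beside -0.13.

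The directions of the 6 hosts above 0 depend on the scale of the libraries, while SNHG15, SNHG1, SNHG12 and SNHG7 were lower on every scale tried. No source used here states a normalisation of the deposited values between libraries. Rescaling every library to the same total over all transcripts (TPM), transcripts under 300 bases included, moved the median log2 fold change of all genes at 24 h from -0.05 to -0.78. All 10 hosts were then lower at 24 h, 3 of them (SNHG1, SNHG12 and SNHG15) at an adjusted p under 0.01 by limma, and none rose, against 28.9% of all genes lower and 1.73% higher on that scale. TPM multiplies all genes of a library by 1 factor, so the order of the hosts is largely fixed under it. The fold changes of ZFAS1, GAS5 and SNHG3 stood 0.64, 0.56 and 0.56 above the all-gene median as deposited and 0.50, 0.42 and 0.45 above it under TPM. Those of SNHG15, SNHG1 and SNHG12 stood at -1.57, -0.65 and -0.61 as deposited and at -1.58, -0.78 and -0.72 under TPM. Median-of-ratios scaling put the all-gene median at -0.02 and called 3 hosts higher and 3 lower, against 19.8% and 21.8% of all genes.

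SNHG15, the host of SNORA9, stood at 40.4, 34.8 and 30.1 FPKM at 0 h, 29.4, 30.1 and 25.3 after 1 h, 22.4, 25.3 and 18.3 after 2 h, and 9.93, 11.6 and 11.5 after 24 h. The 3 libraries of 24 h lay below every other library, those of 2 h lay below those of 0 h, and those of 1 h overlapped with 0 h. The log2 fold change was -0.30 ± 0.14 (SE) at 1 h, -0.66 ± 0.14 at 2 h and -1.62 ± 0.14 at 24 h, which is 0.325 of the 0 h level, with limma adjusted p of 0.996, 0.0805 and 2.5e-06. Between 2 h and 24 h it fell by a further 0.96 on the log2 scale (limma adjusted p = 1.4e-04), and by 0.69 (limma adjusted p = 0.36) under TPM over all transcripts.

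SNHG1 carries the largest number of box C/D snoRNAs after GAS5. Its level was 162, 210 and 167 FPKM at 0 h, 178, 165 and 149 at 1 h, 164, 145 and 160 at 2 h, and 107, 122 and 100.5 at 24 h. All libraries of 24 h were below all others, and the earlier time points overlapped. The log2 fold change at 24 h was -0.70 ± 0.12 (SE, limma adjusted p = 3.1e-04) relative to 0 h and -0.51 ± 0.12 (limma adjusted p = 0.00319) relative to 2 h. The value of 210 in 0 h replicate 2 includes 35.5 FPKM from a 126-base record that was at 0 elsewhere, and without transcripts under 300 bases the fall from 0 h was 0.62 on the log2 scale. The change since 2 h was no longer past the threshold without 2 h replicate 1 (limma adjusted p = 0.0154), 2 h replicate 3 (0.0111), 24 h replicate 1 (0.0106) or 24 h replicate 3 (0.0109), and it was -0.22 (0.284) when class code = transcripts alone were summed and -0.29 (0.786) under TPM over all transcripts. Over its 24 alternatives the adjusted p ran from 0.000196 to 0.786.

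SNHG12, host of SNORD99 and of 3 SNORAs, stood at 70.3, 64.8 and 61.2 FPKM at 0 h, 56.5, 56.7 and 51.3 at 1 h, 47.6, 53.5 and 45.8 at 2 h, and 48.6, 43.8 and 32.4 at 24 h. Every library in hypoxia lay below every library of 0 h. Its log2 fold change was -0.25 ± 0.13 (SE), -0.42 ± 0.13 and -0.66 ± 0.13 at 1, 2 and 24 h, with limma adjusted p of 0.996, 0.197 and 0.00115. The change between 2 h and 24 h (-0.25, limma adjusted p = 0.139) did not pass.

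SNHG7, host of SNORA17A and SNORA17B, had 82.7, 70.9 and 62.7 FPKM at 0 h, 63.2, 66.4 and 50.4 at 1 h, 60.0, 61.8 and 36.4 at 2 h, and 50.1, 59.7 and 45.2 at 24 h. The libraries of 2 h and 24 h lay below those of 0 h and overlapped with each other. Its log2 difference from 0 h at 24 h was -0.48, with a 95% interval of -0.90 to -0.05 and a limma adjusted p of 0.0545.

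ZFAS1, which carries SNORD12, SNORD12B and SNORD12C, stood at 120, 112 and 125 FPKM at 0 h, 142, 122 and 157 at 1 h, 151, 123.4 and 166 at 2 h, and 152, 223 and 169 at 24 h. The libraries of 24 h lay above those of 0 h, with 24 h replicate 2 well above the other two, and those of 1 h and 2 h overlapped with 0 h. The log2 fold change at 24 h was 0.59 ± 0.15 (SE), or 1.504-fold, with a limma adjusted p of 0.00573. It was no longer past the threshold without 0 h replicate 1 (adjusted p = 0.0173), 0 h replicate 2 (0.0249), 0 h replicate 3 (0.0116) or 24 h replicate 2 (0.0250, log2 fold change 0.43), and it was -0.28 under TPM over all transcripts. Over the 24 alternatives the adjusted p ran from 0.00303 to 0.633.

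GAS5, named growth arrest-specific 5 and the host with the most snoRNAs, stood at 206, 199 and 214 FPKM at 0 h, 237, 218 and 261 at 1 h, 219, 217 and 272 at 2 h, and 278, 370 and 246 at 24 h. Every library in hypoxia lay above every library of 0 h, and 24 h overlapped with 2 h. The log2 fold change was 0.21 ± 0.14 (SE) at 1 h, 0.19 ± 0.14 at 2 h and 0.51 ± 0.14 at 24 h, with limma adjusted p of 0.996, 0.554 and 0.00942. The call at 24 h was close to the threshold: leaving out any of the libraries but 2 h replicate 3 (0.00765) and 24 h replicate 3 (0.00232) put it past 0.01. The adjusted p by limma was then 0.0273, 0.0337 and 0.0197 without 0 h replicates 1, 2 and 3, 0.0135, 0.0124 and 0.0106 without those of 1 h, 0.0123 and 0.0124 without 2 h replicates 1 and 2, and 0.0151 and 0.0364 without 24 h replicates 1 and 2. Over the 24 alternatives it ran from 0.00232 to 0.538, and under TPM over all transcripts the fold change was -0.36.

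SNHG3, host of SNORA73A and SNORA73B, shares its locus in the table with RCC1. It had 27.6, 27.4 and 24.6 FPKM at 0 h, 37.8, 26.1 and 33.9 at 1 h, 35.6, 29.3 and 33.6 at 2 h, and 38.0, 44.2 and 32.7 at 24 h, with 2 h and 24 h above 0 h in every library. Its log2 difference of 0.51 ± 0.15 (SE) at 24 h missed the threshold (limma adjusted p = 0.0101). It passed without 1 h replicate 1 (0.00796), 1 h replicate 2 (0.0051) or 24 h replicate 3 (0.00503), as well as over transcripts of at least 300 bases (0.00406), among genes above 1 FPKM (0.00957), with TPM computed over those same longer transcripts (0.0081) and with median-of-ratios scaling (0.00696). These are 7 of 24 alternatives, whose adjusted p ran from 0.00406 to 0.533, and the difference was -0.33 under TPM over all transcripts.

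SNHG6, SNHG8 and SNHG5 did not pass the test at any time. SNHG6 had 377, 343 and 322 FPKM at 0 h and 419, 463 and 315 at 24 h, a log2 difference of 0.19 with a 95% interval of -0.11 to 0.48. It was 0.0689 without 24 h replicate 2 and 0.346 (limma adjusted p = 0.0171, range over its alternatives 0.0171 to 0.701) without 24 h replicate 3. SNHG8 had 170, 174 and 186 FPKM at 0 h, 202, 199 and 207 at 1 h, 203, 217 and 192 at 2 h, and 179, 199 and 196 at 24 h. Its libraries of 1 h and 2 h lay above those of 0 h and those of 24 h overlapped with them, with a log2 difference at 24 h of 0.12 (95% interval -0.06 to 0.30). SNHG5 had 132, 115 and 116 FPKM at 0 h and 107, 169 and 133 at 24 h, and its log2 difference of 0.15 (95% interval -0.16 to 0.46) became -0.02 without 24 h replicate 2. These intervals leave out a doubling in either direction on the deposited scale, but under TPM over all transcripts the differences were -0.69, -0.75 and -0.71.

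No host passed the test after 1 h or 2 h on the deposited scale, and few genes of any kind did. At an adjusted p under 0.01, limma called 1 of 16680 genes at 1 h (0.006%) and 4 at 2 h (0.024%, or 0.018% with the fold threshold). Under TPM over all transcripts the all-gene median moved to -0.56 at 1 h and -0.94 at 2 h. There 9 genes were higher and 19 lower at 1 h, and 14 higher (0.0963%) and 531 lower (3.65%) at 2 h, SNHG15 among the last (-1.68, limma adjusted p = 0.00597, 0.00597 to 0.294 over its alternatives). At an unadjusted p under 0.05, 1 host of 10 (SNHG8, higher) was past it at 1 h and 4 at 2 h (SNHG8 higher, SNHG7, SNHG12 and SNHG15 lower), beside 769 and 2547 genes in all. The libraries were separate from 0 h at 1 h for GAS5 and SNHG8 (higher) and SNHG12 (lower), against 6.36% and 7.33% of all genes (13.7% together). At 2 h they were separate for 4 hosts higher and 3 lower, against 12.2% and 13.1% of all genes (25.3% together). Between 2 h and 24 h, SNHG15 and SNHG1 passed, both lower, against 20.3% of all genes lower and 16.3% higher (36.6% together). With the fold threshold no host was called, against 7.28% of all genes lower and 7.44% higher (14.7% together). SNHG15 and SNHG1 were also the 2 hosts whose libraries did not overlap, against 28.9% of all genes lower and 25.3% higher (54.2% together). The comparisons with 0 h share its 3 libraries, so their values are given side by side only.

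**Figure D2:**
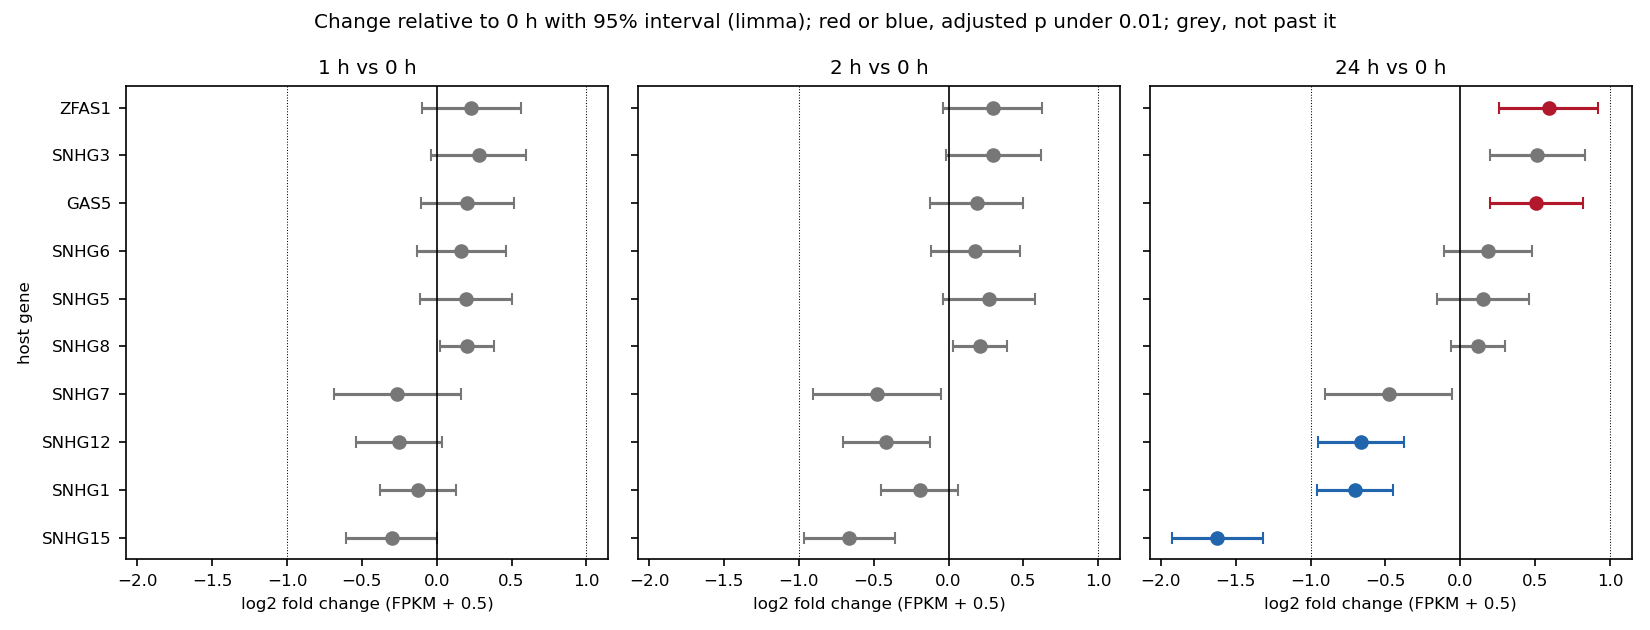
Log2 fold change of each host relative to 0 h at 1, 2 and 24 h (linear axis in log2 units of FPKM + 0.5), with 95% intervals from limma; coloured points are past an adjusted p of 0.01 and dotted lines mark a log2 change of 1 in size. At 24 h 2 hosts are past it above 0 and 3 below it, SNHG15 at -1.62; under TPM over all transcripts all 10 are below 0.

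The hosts were made of many transcripts. Of the 181 transcripts, 112 passed the filter of 0.5 FPKM in at least 3 libraries; 31 were shorter than 300 bases, and 28 records of 63 to 206 bases are not in the annotation used for transcript types, 24 of them at 0 in every library. Among the 112, 5 transcripts rose and 6 fell at 24 h (absolute log2 fold change above 1 and limma adjusted p under 0.01), against 5% and 6.49% (11.5% together) of the 62162 transcripts tested. Usage, the transcript relative to the other transcripts of its gene, was gained by 8 and lost by 8 at an adjusted p under 0.05, against 5.63% and 5.39% (11% together) of 57084. No transcript of a host was called at 1 h or 2 h, when 0.0035% and 0.00175% of all transcripts were called in usage, all of them lost, and 0 in level. Between 2 h and 24 h, 4 host transcripts were lower and none higher, against 5.24% and 3.72% (8.96% together), and 1 gained and 2 lost usage, against 3.54% and 3.72% (7.26% together). The counts in level are near or under these shares, and those in usage change with the pseudocount. Neither is a result about the hosts as a group, and the transcripts are described for what each did. The values of a usage test do not depend on the scaling between libraries except through the pseudocount of 0.5, and with 0.1 in its place 5 were gained and 2 lost. Types and exon numbers come from GENCODE release 44 lifted to GRCh37; lengths in the table were within 10 bases of it for 18 of the 38 transcripts named or called, so for the others the exons may differ.

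GAS5 held 7 of the 16 usage calls and 27 of the 112 host transcripts tested. Its most abundant transcript, ENST00000450589 (632 bases, 12 exons), stood at 46.5, 38.2 and 43.5 FPKM at 0 h and at 112, 141 and 75.0 at 24 h, with no overlap. That was 20.7 ± 1.71% (SD, n = 3) of GAS5 at the start, 21.2 ± 2.04% after 1 h, 23.7 ± 1.57% after 2 h and 36.3 ± 5.14% after 24 h. Its level rose by 1.30 ± 0.19 (SE) on the log2 scale and its usage by 1.11 ± 0.23, with limma adjusted p of 5.7e-04 and 0.0130. Both calls were kept when each library was left out in turn.

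Another 2 GAS5 transcripts gained usage from a low start. ENST00000444470 (424 bases in the table, typed as a retained intron) had 4.11, 1.46 and 1.83 FPKM at 0 h and 12.1, 18.3 and 11.1 at 24 h, and its usage rose by 1.88 ± 0.33 (SE, limma adjusted p = 0.00592), also without each library in turn. ENST00000448718 (565 bases) was listed at 0 in the 3 libraries of 0 h and at 1.20, 18.9 and 18.7 FPKM at 24 h. Its usage call (limma adjusted p = 0.0355, 0.00842 to 0.110 with 1 library left out) was lost without 0 h replicate 1, 2 or 3 or without 24 h replicate 2 or 3.

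The GAS5 transcripts that lost usage were ENST00000412059 (979 bases, 12.3 ± 1.74% to 6.21 ± 2.29% of GAS5, SD, n = 3), ENST00000442067 (1114 bases, 6.49 ± 0.85% to 3.15 ± 1.20%), ENST00000432536 (841 bases, 1.77 ± 0.58% to 0.497 ± 0.296%) and ENST00000422008 (497 bases, 1.81 ± 0.08% to 0.342 ± 0.311%). All but ENST00000432536 are typed as retained introns. Their log2 changes of usage were -1.12, -1.13, -1.68 and -2.27, with limma adjusted p of 0.0344, 0.0361, 0.0175 and 0.0458. These calls were lost without 6, 7, 1 and 9 of the 12 libraries, each including 0 h replicate 1, with adjusted p of up to 0.0999, 0.105, 0.0651 and 0.125. The second most abundant GAS5 transcript, a class j form near ENST00000430245 (670 bases), held 17.99 ± 0.68% at 0 h and 15.9 ± 6.06% at 24 h, and its usage difference did not pass (limma adjusted p = 0.637).

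By the annotation, GAS5 transcripts differ at the end of exon 7, which was looked at after the transcript values were seen. On the minus strand of GRCh37 chromosome 1 the longer exon ends at 173834609 and the shorter at 173834648. Each donor is shown with 15 exon bases before it, and capitals mark the first 2 intron bases, both GT (chr1:173834594-173834623 and chr1:173834633-173834662).
longer exon 7: tcataccttttaaagGTacatgttttattg
shorter exon 7: ggatgacttgcttggGTaaggacatgaaga
Each transcript was given the donor of its nearest annotated transcript. The true donor of a class j form, or of a form of another length, may differ. ENST00000444470, for example, has 424 bases against 1326 in the annotation. The 10 transcripts given the longer exon carried 44.5%, 41.4% and 43.1% of GAS5 at 0 h and 55.2%, 54.5% and 52.0% at 24 h. Their means were 44.8 ± 3.04% (SD, n = 3) at 1 h and 46.9 ± 1.52% at 2 h. The 17 given the shorter exon carried 31.8 ± 0.65% (SD, n = 3) at 0 h and 28.3 ± 2.99% at 24 h. The longer form was higher at 24 h than at 0 h in every library, and the shorter form was lower in every library. These shares are a description with no test.

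Among the hosts that fell, SNHG12 had no transcript called at 24 h, and the transcripts of SNHG1 did not move alike. A class j form of SNHG1 near ENST00000541578 (1150 bases) had 35.2, 36.0 and 32.5 FPKM at 0 h and 1.21, 6.51 and 7.87 at 24 h. It went from 19.5 ± 2.26% to 4.77 ± 3.39% of SNHG1 (SD, n = 3), its level fell by 2.92 ± 0.53 (SE, limma adjusted p = 0.00209), and its usage fell by 2.55 ± 0.57 (0.0174); the usage call was lost without 0 h replicate 1 (0.0548). ENST00000545440 (754 bases) gained usage (1.29, limma adjusted p = 0.0281, up to 0.0885 with 1 library left out), from 0.971 ± 0.154% to 2.73 ± 0.39% of SNHG1, and that call was lost without 0 h replicate 1 or 3 or any of the 24 h libraries. The SNHG1 form with the highest mean over the 12 libraries, class j near the same ENST00000541578 (1066 bases), stood at 40.4, 36.3 and 30.3 FPKM at 0 h and 12.4, 19.8 and 11.3 at 24 h, and its level (-1.30, limma adjusted p = 0.0150) did not pass. Another class j form near it (1408 bases), named after its values were seen, had 4.27, 4.29 and 7.90 FPKM at 0 h and 19.3, 27.6 and 13.8 at 24 h, without overlap and above the 1066-base form in each 24 h library. Neither its level (1.792 ± 1.0799, SE, limma adjusted p = 0.250) nor its usage (2.66 ± 1.17, 0.173) passed. The low ENST00000541615 (748 bases), named after its values were seen, fell from 2.84 ± 0.14 to 0.799 ± 0.502 FPKM (SD, n = 3; limma adjusted p = 0.00943, up to 0.0322), a call lost without any of 10 libraries, all but 2 h replicate 2 and 24 h replicate 2.

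In SNHG15, ENST00000578968 (982 bases) was the main transcript with 15.7, 12.6 and 13.3 FPKM at 0 h and 2.48, 4.69 and 4.99 at 24 h. Its level fell by 1.70 ± 0.33 (SE, limma adjusted p = 0.00332), but not past the threshold without 0 h replicate 1, 2 or 3 or without 24 h replicate 1 (adjusted p up to 0.0159), while it kept its part of the gene, 39.8 ± 4.10% at 0 h and 36.3 ± 9.95% at 24 h (SD, n = 3). ENST00000579383 fell from 11.6, 6.86 and 4.25 FPKM to 1.14, 0 and 1.12, a log2 change of -2.77 ± 0.45 (SE, limma adjusted p = 0.00108). ENST00000585030 fell by 1.91 ± 0.29 (SE, limma adjusted p = 7.5e-04), and both calls were kept without each library in turn. The 3513-base ENST00000580528, whose annotated exons span 2 introns of the main transcript, gained usage (7.03 ± 1.18% to 13.6 ± 5.52%, limma adjusted p = 0.0366) as its level went from 2.45 ± 0.39 to 1.5002 ± 0.661 FPKM, and that call was lost without 8 of the 12 libraries (adjusted p up to 0.112), among them every library of 0 h. A 1609-base class j form near ENST00000578968 gained usage as well (1.31 ± 1.61% to 4.65 ± 3.32%, limma adjusted p = 0.0306), but not without 0 h replicate 1 or 2 or 24 h replicate 1 or 3 (adjusted p up to 0.0999).

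In SNHG3, the 3-exon ENST00000413987 (2201 bases) had 17.02, 14.7 and 14.2 FPKM at 0 h, 26.8, 19.1 and 22.8 at 1 h, 26.5, 20.3 and 24.8 at 2 h, and 29.1, 33.2 and 21.9 at 24 h. It carried 57.8 ± 4.08% of SNHG3 at the start, 70.5 ± 2.98% after 1 h, 72.6 ± 2.78% after 2 h and 72.9 ± 5.09% after 24 h (SD, n = 3), above 0 h in all libraries of hypoxia. ENST00000437681 (2614 bases), typed as a retained intron and starting inside the first intron of the main form, went from 28.8 ± 1.49% to 15.6 ± 5.83%. Usage changed by 0.96 and -1.14 (limma adjusted p = 0.0275 and 0.0265), and the calls were lost without 4 and 5 libraries, all of them of 0 h or 24 h (adjusted p up to 0.0909 and 0.0872).

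Transcripts also moved inside hosts whose sums did not pass. In SNHG5, ENST00000369605 (981 bases) rose from 4.77, 7.19 and 6.75 FPKM to 17.4, 22.5 and 26.3, or 5.24 ± 1.42% to 16.4 ± 3.22% of the gene (SD, n = 3). Its level rose by 1.74 ± 0.25 and its usage by 1.78 ± 0.32 (SE), with limma adjusted p of 4.9e-04 and 0.00707, and both were kept without each library in turn. The main SNHG5 transcript, ENST00000414002 (430 bases), stood at 92.8 ± 11.03 FPKM at 0 h and 91.4 ± 24.3 at 24 h.

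In SNHG6, ENST00000520944 (638 bases) rose from 183 ± 10.6 to 256 ± 35.1 FPKM (SD, n = 3; log2 fold change 0.47, under the fold threshold for a call, limma adjusted p = 0.00502). That p was above 0.01 without any library of 0 h and without 24 h replicate 1 or 2 (up to 0.0239). ENST00000521127 (560 bases, retained intron) fell from 13.0, 12.6 and 10.8 FPKM to 4.36, 6.22 and 6.65, by 1.03 ± 0.18 in level (SE, limma adjusted p = 0.00187; not called without 0 h replicate 1, nor without 24 h replicate 1, where the change was -0.86) and by 1.25 ± 0.29 in usage (0.0210; up to 0.0644, lost without any library of 0 h and without 24 h replicate 1 or 2). ENST00000520619 lost usage (2.25 ± 0.77% to 0.661 ± 0.123%, limma adjusted p = 0.0215; up to 0.0727, lost without 0 h replicate 3 or 24 h replicate 3). ENST00000521399 (302 bases) was at 136 ± 19.5 and 126 ± 41.5 FPKM.

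In SNHG8, ENST00000602819 (470 bases) rose from 47.4 ± 1.13 to 72.4 ± 5.90 FPKM (SD, n = 3; log2 fold change 0.60, limma adjusted p = 0.00156). This is under the fold threshold for a call, and its adjusted p stayed under 0.01 (up to 0.00902) without each library in turn. Levels of transcripts were not tested under TPM over all transcripts, where the log2 difference of SNHG8 was -0.75 in place of 0.12. The SNHG8 transcript with the highest mean over the 12 libraries, ENST00000602520, was at 72.6 ± 10.2 and 67.5 ± 3.78 FPKM. At 24 h its mean was below that of ENST00000602819. In ZFAS1, ENST00000441722 (946 bases) rose from 18.2, 22.2 and 29.6 to 45.8, 63.6 and 46.8 FPKM (1.15 ± 0.26, SE, limma adjusted p = 0.00791; up to 0.0361), a call lost without 7 of the 12 libraries, among them all 3 of 24 h. In SNHG12 and SNHG7 no transcript was called: SNHG12 ENST00000470977 (retained intron) was at 23.1 ± 4.60 and 18.8 ± 4.38 FPKM, ENST00000531126 at 16.3 ± 1.34 and 8.13 ± 2.82 FPKM (limma adjusted p = 0.0138), and SNHG7 ENST00000416970 at 60.8 ± 8.25 and 45.2 ± 6.09 FPKM.

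**Figure D3:**
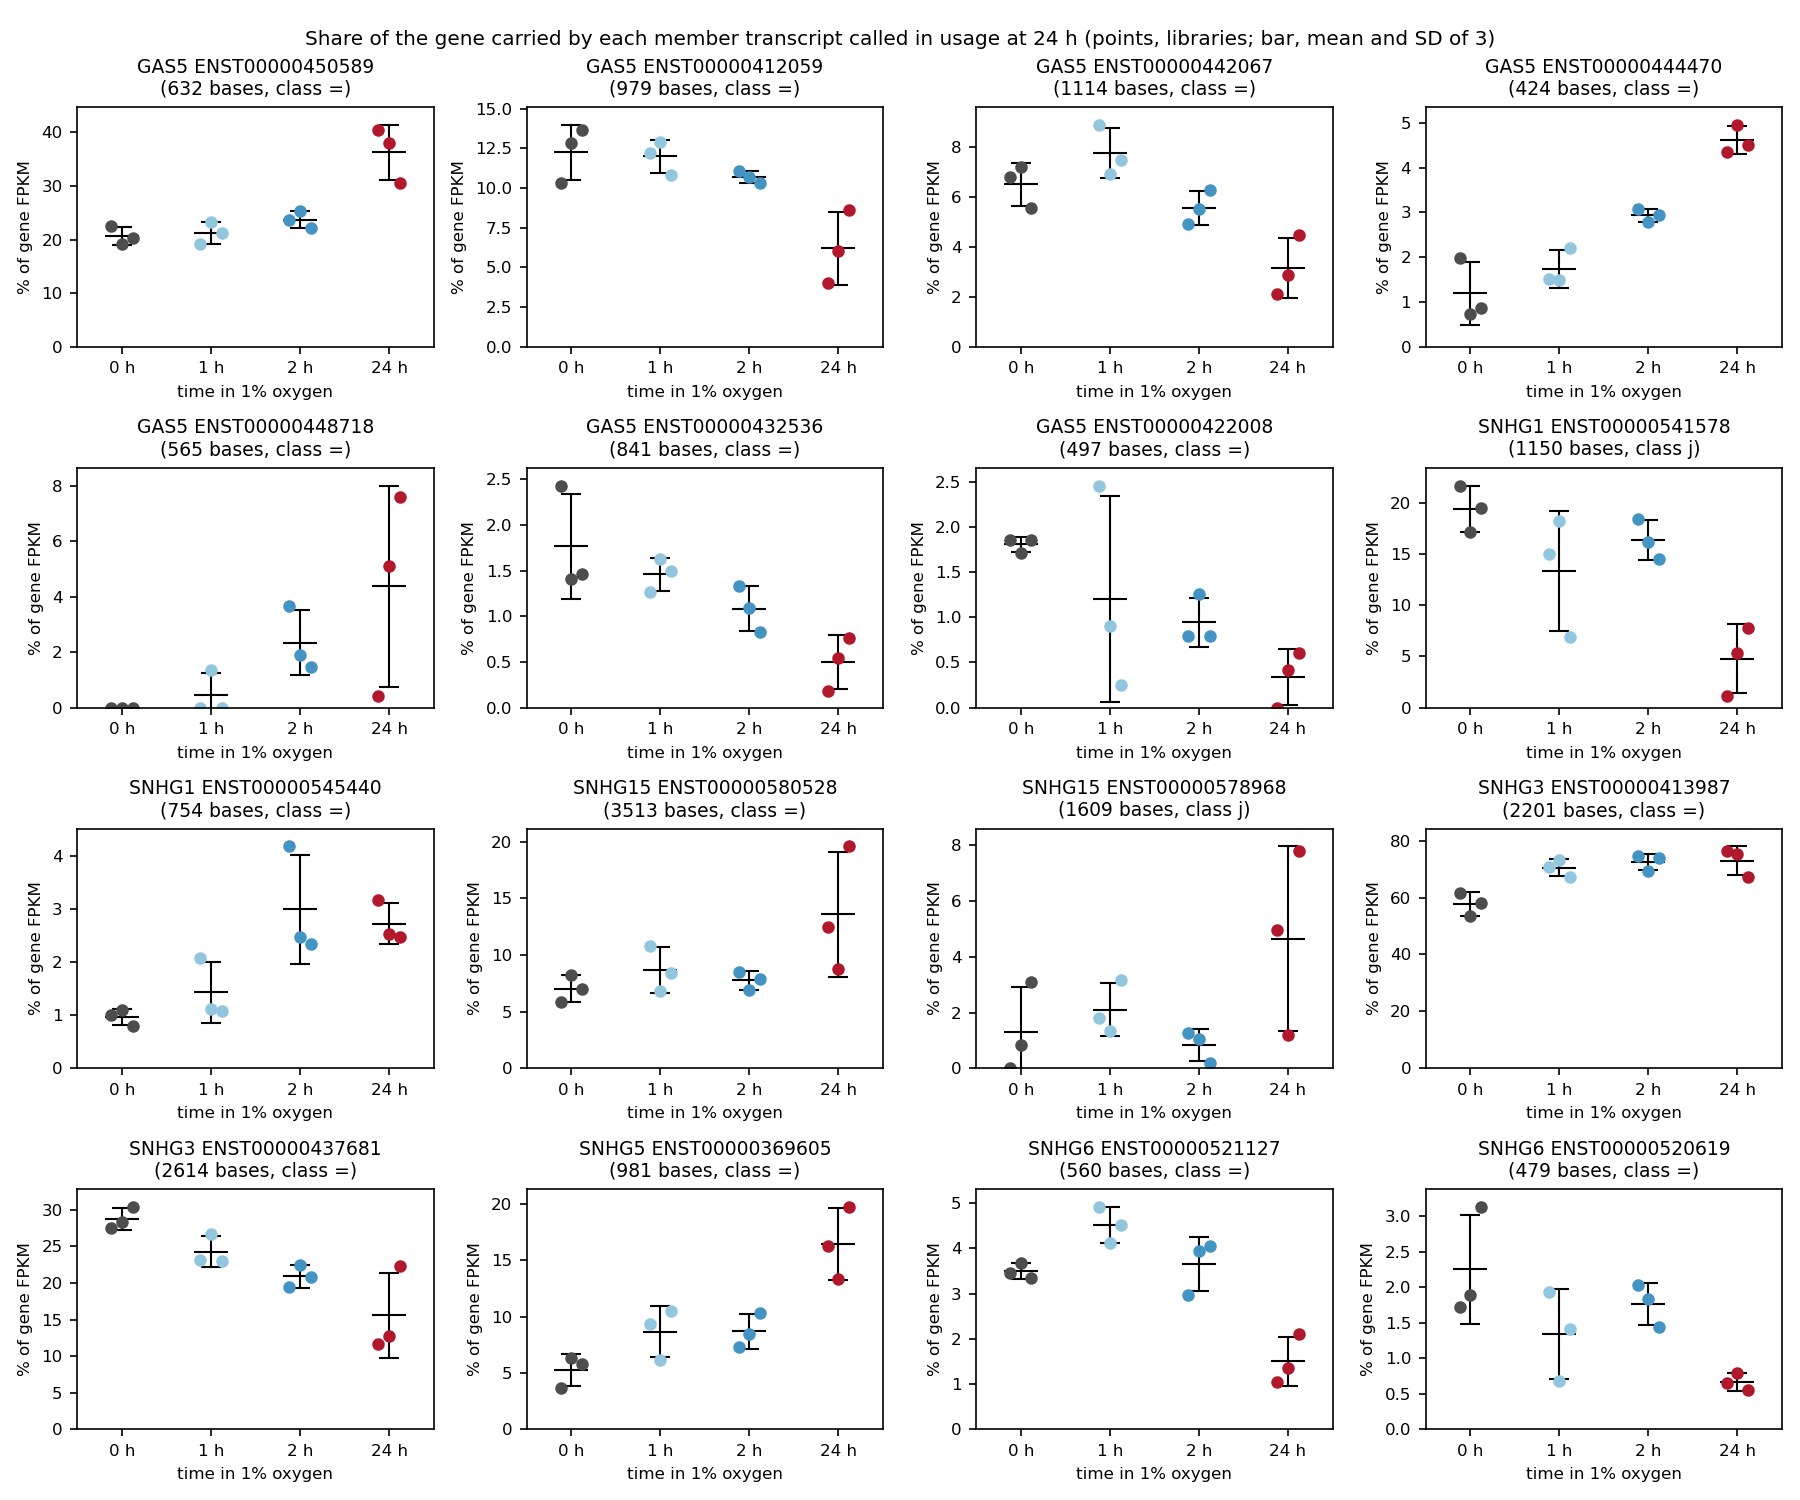
Share of its gene (percent of the gene's FPKM, linear axes from 0 that differ between panels) carried by each of the 16 host transcripts called in usage at 24 h, by time in 1% O2; points are libraries and bars the mean and SD of 3. ENST00000450589 of GAS5 goes from 20.7% to 36.3% and the 1150-base form of SNHG1 from 19.5% to 4.77%.

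Transcripts typed as retained introns are annotated as keeping intron sequence that other transcripts of the gene remove. Their share was chosen for description after the values were seen. The planned measure was the share of transcripts whose exons hold a snoRNA. It gave 0 for all 74 transcripts of GAS5, SNHG3, SNHG12 and ZFAS1, the 4 hosts of the 6 snoRNAs that the GRCh37 annotation lists. Of these transcripts, 7 of GAS5, 3 of SNHG12 and 1 of SNHG3 are not in that annotation and counted as 0 with no exons to look at. The other snoRNAs that RefSeq places within the hosts were not looked at. In GAS5 the retained-intron share was 52.0%, 53.8% and 53.8% at 0 h, 61.8%, 56.9% and 51.6% at 1 h, 52.0%, 47.5% and 54.1% at 2 h, and 33.0%, 34.5% and 47.7% at 24 h. All libraries of 24 h lay below all of 0 h, by 14.8 points on average, and 24 h replicate 3 lay closest to them. In SNHG3 the share went from 35.3 ± 7.33% to 20.9 ± 3.47% and in SNHG6 from 3.495 ± 0.17% to 1.498 ± 0.55% (SD, n = 3), also without overlap.

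In SNHG12 (50.7 ± 5.26% to 59.4 ± 4.51%), SNHG1 (22.4 ± 5.29% to 23.1 ± 0.77%) and SNHG5 (5.90 ± 1.38% to 4.38 ± 1.78%) the libraries overlapped. For the 10 hosts together the share was 15.7 ± 0.25% at the start, 16.2 ± 0.70% after 1 h, 14.2 ± 1.76% after 2 h and 12.6 ± 1.54% after 24 h. Two-sided exact permutation tests gave p = 0.1 for GAS5, SNHG3, SNHG6 and the 10 together. That is the smallest value this test can give for 3 libraries against 3, so it cannot reach 0.05. SNHG7, SNHG8, SNHG15 and ZFAS1 have no transcript of this type. The share follows the type alone and misses other forms with intron sequence. By their annotated exons, ENST00000369605 of SNHG5, ENST00000545440 of SNHG1 and ENST00000580528 of SNHG15 span at least 1 intron of the main form. They are not so typed, and each gained usage. ENST00000541615 of SNHG1, which fell in level, is also such a form.

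**Figure D4:**
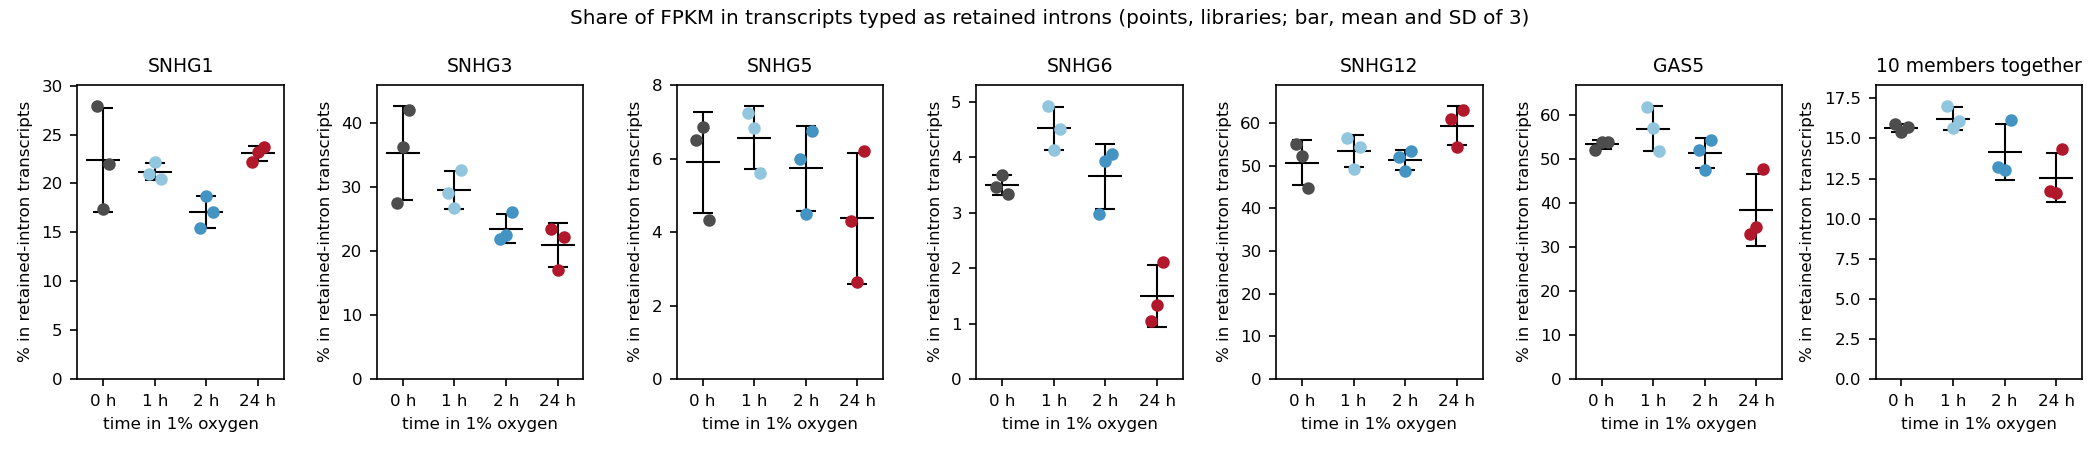
Share of each host's FPKM in transcripts typed as retained introns (percent, linear axes from 0 that differ between panels) by time in 1% O2, for the 6 hosts that have such transcripts and for the 10 hosts together; points are libraries and bars the mean and SD of 3. The libraries of 24 h lie below those of 0 h in GAS5, SNHG3, SNHG6 and the 10 together and overlap with them in SNHG1, SNHG5 and SNHG12.

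Start-site groups of the deposited table, which join transcripts that begin at 1 place, give the share of each 5′ end. In SNHG15 the group with 9 transcripts, ENST00000580528 among them, went from 11.9 ± 2.89% of the gene at 0 h to 23.8 ± 4.49% at 24 h (SD, n = 3), while its own level went from 4.23 ± 1.55 to 2.63 ± 0.63 FPKM. In ZFAS1 the group that includes ENST00000441722 went from 43.1 ± 6.05% to 51.5 ± 3.05%, and in GAS5 the group of ENST00000450589 from 50.3 ± 1.60% to 56.9 ± 0.71%. In SNHG6, SNHG7 and SNHG8 a single group held 97.3% or more of the gene at 0 h and at 24 h. These shares carry no test.

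The snoRNAs themselves were mostly listed at 0 in these poly(A) libraries. Of 34 snoRNA names from the hosts' introns, 23 were in the table and 21 of those were at 0 in every library. SNORA73B of SNHG3 was above 0 in all 12, with 6.88, 7.68 and 6.28 FPKM at 0 h and 4.34, 4.41 and 17.4 at 24 h, the last of these far from its replicates (log2 difference 0.02, limma adjusted p = 0.975). SNORA9 of SNHG15 was above 0 in 1 library, with 5.48 FPKM in 1 h replicate 1. A value of 0 in this table says nothing of the amount of a snoRNA in the cells. Mature snoRNAs are not polyadenylated, and short records of other kinds were also often listed at 0, as were 24 of the 31 host transcripts under 300 bases in every library, against 6 of the 150 longer ones.

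Of 16 proteins that assemble on snoRNAs or help build their particles (snoRNPs), 13 fell and 1 rose at 24 h (limma adjusted p under 0.01), where 23.2% of all genes fell and 18.3% rose, with a median log2 fold change of -1.04 beside -0.05 for all genes. The largest falls were in NOP56 (522 ± 57.8 to 137 ± 9.91 FPKM, SD, n = 3, log2 fold change -1.92, limma adjusted p = 8.8e-07) and NOP58 (179 ± 8.78 to 51.7 ± 6.42, -1.79, 1.1e-06), core proteins of box C/D particles, and in NUFIP1 (8.90 ± 0.92 to 2.65 ± 0.94, -1.61, 1.9e-05), an assembly factor. FBL, the methyltransferase of these particles, stood at 372 ± 24.3 and 350 ± 25.5 FPKM (limma adjusted p = 0.393), and PIH1D1 was the member that rose (0.49).

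Of 14 further noncoding hosts, 11 were in the table and 9 were tested; 5 fell and none rose, with a median of -0.75, where 23.2% of all genes fell and 18.3% rose. Whether this differs from the 10 hosts was not tested. The 5 were SNHG17 (24.9 ± 2.57 to 8.99 ± 1.41 FPKM, -1.43), LINC00338 (-1.15), SNHG9 (-1.12), SNHG11 (-1.04) and DANCR (-0.75). Of 23 protein-coding hosts outside the ribosomal proteins, 13 fell and 4 rose, with a median of -0.63 and the largest falls in HSPA8, a constitutive heat shock protein (-2.14, limma adjusted p = 1.6e-06), NOP56 and NOP58; the last 2 and DKC1 are also among the snoRNP proteins. The 4 that rose were EIF4A2, EEF2, TPT1 and GNB2L1, with log2 fold changes of 1.04, 0.98, 0.71 and 0.54. Under TPM over all transcripts none of the protein-coding hosts, snoRNP proteins or nonsense-mediated decay factors tested here rose, and 12 of 23, 11 of 16 and 5 of 16 fell, where 1.73% of all genes rose and 28.9% fell.

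The 79 cytosolic ribosomal proteins, whose messages carry 5′TOP runs, went the other way on the deposited scale. Of these 32 rose and none fell, with a median of 0.37 that became -0.50 under TPM over all transcripts, where 1 fell and none rose; relative to the all-gene median this was 0.42 and 0.28. The largest rises as deposited were in RPL13A (1.19), RPL3 (0.88) and RPL12 (0.84). In all, 92.4% of them lay above the median of all genes, against 60% of the 10 hosts and 12.5% of the snoRNP proteins. Of 16 factors of nonsense-mediated decay and the exon junction complex, 6 fell and 1 rose, with a median of -0.24 and the largest falls in MAGOH (-1.23), SMG8 (-1.10) and DHX34 (-1.06), while NBAS rose (0.81). Among all genes 23.2% were lower and 18.3% higher (41.5% together). Whether the list differs from them was not tested, so the counts are no result about it. Members named beyond the 3 largest changes of a list (SNHG11, DANCR, FBL, DKC1, PIH1D1, NBAS and the 4 protein-coding hosts that rose) were chosen after their values were seen.

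**Figure D5:**
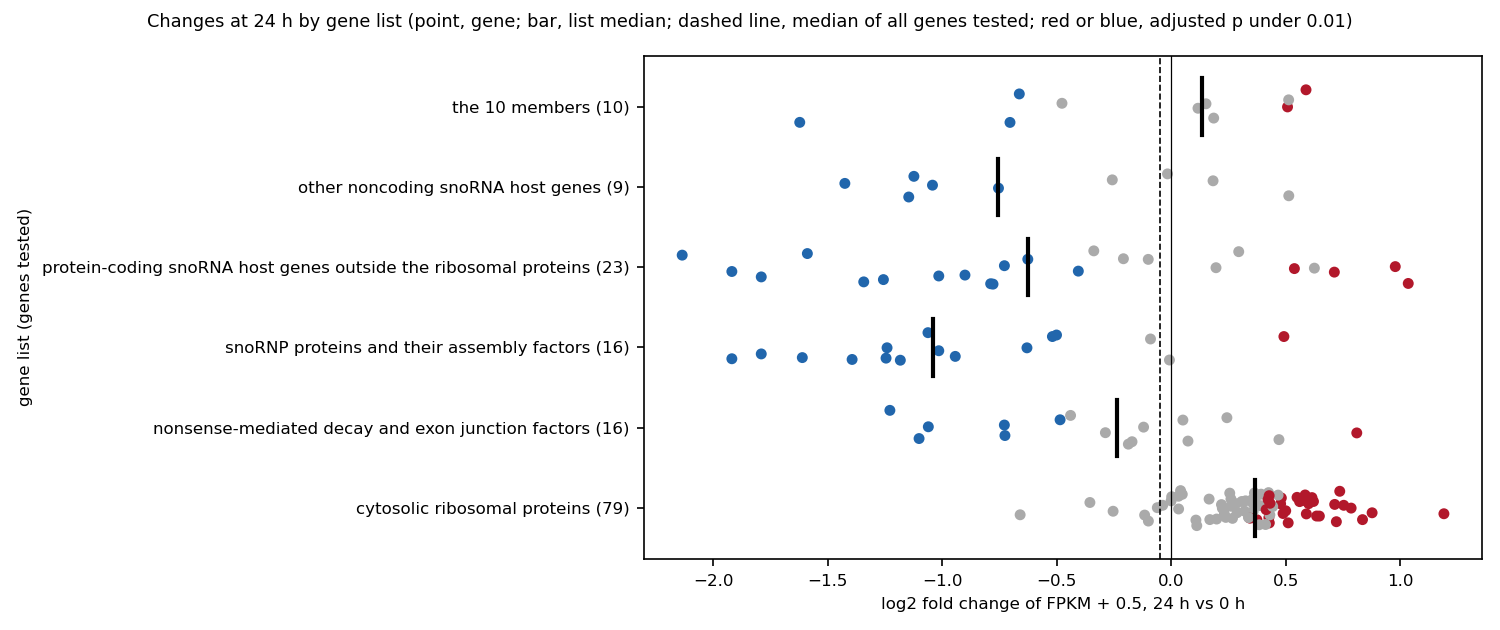
Log2 fold change between 0 h and 24 h (linear axis, FPKM + 0.5 as deposited) of every tested gene of 6 lists; each point is a gene, coloured where the limma adjusted p is under 0.01, thick bars are list medians and the dashed line the median of all genes (-0.05). The 10 hosts spread to both sides (median 0.13, -0.73 under TPM over all transcripts), the snoRNP proteins lie mostly below 0 (median -1.04) and the ribosomal proteins mostly above it (median 0.37, -0.50 under TPM).

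Among the 10, the libraries ordered GAS5, ZFAS1 and SNHG3 alike: Pearson's r over the 12 libraries was 0.926 between GAS5 and ZFAS1, 0.839 between ZFAS1 and SNHG3 and 0.817 between GAS5 and SNHG3. SNHG15 went with SNHG1 (0.878), SNHG12 (0.838) and SNHG7 (0.657), and against GAS5 (-0.770) and ZFAS1 (-0.788). The points share their libraries and the 4 time points, so r mainly repeats the changes over time, and no p is given. Outside the hosts, on the same measure and among genes with a mean of at least 1 FPKM, the 3 genes most like GAS5 were COMMD6 (0.942), C17orf76-AS1 (0.936), itself one of the further noncoding hosts, and TPT1 (0.932), a protein-coding host. Those most like SNHG15 were MRM1 (0.989), SMG8 (0.987) and RP11-304F15.5 (0.987). Those most like ZFAS1 were RHOT1 (0.944), CDKN1B (0.938) and CGGBP1 (0.927).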

How the data were processed

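HCT116 cells were sampled at 0, 1, 2 and 24 h of 1% O2 with 3 libraries each (12 in all). The authors aligned the reads to hg19 (GRCh37) with MapSplice, assembled and merged transcripts with Cufflinks, compared them with Ensembl, and deposited FPKM for each transcript; the submitters' notes also name CASAVA 1.8.2. Read counts, junction counts and the depth of the libraries were not analysed here. FPKM of class = and j transcripts was summed per gene name, as deposited, without rescaling. Genes above 0.5 FPKM in at least 3 libraries (16680) were tested with limma 3.58.1 (trend, R 4.3.3, and the data.table package, version 1.17.8) on log2(FPKM + 0.5) over all 12 libraries, two-sided, Benjamini-Hochberg over all genes. Transcripts were tested likewise, and usage as log2 of the transcript over the other transcripts of its gene, each plus 0.5. A log2 change on this scale understates changes of low genes. Summaries and figures used Python 3.11.15, pandas 2.3.3, numpy 2.4.6, scipy 1.17.1 and matplotlib 3.10.9.

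The members, gene lists and tests were chosen with earlier results of these data known. The rule was to name all 10 members, transcripts with at least 10% of the gene's mean or called in usage, and the 3 largest changes of each list. Some transcripts with at least 10% are not described above, and none of these was called at 24 h. They are ENST00000326677, ENST00000428008 and ENST00000371743 of ZFAS1, ENST00000602414 and ENST00000602483 of SNHG8, ENST00000475441 of SNHG12 and a class j form of SNHG7 near ENST00000414282. The retained-intron share, its alternatives and the exon 7 shares were added after the data were seen. The tests were checked on data with known answers, where single transcripts were recovered less often than genes even at larger set changes, so a transcript not called may still have changed. Across genes, which are not independent replicates, libraries of the same time point correlated with Pearson's r of 0.965 to 0.988, and 0 h with 24 h libraries with 0.905 to 0.935. Alternatives were other scalings, pseudocounts, filters and class codes, a replicate block, fewer libraries and each library left out. Replicate numbers pair the libraries of 2 h with those of 0 h, by the data alone: the deviations from the group means of libraries with the same number correlated in every pair (0.129 to 0.362). Those of 1 h and 2 h did likewise (0.117 to 0.428). The main fits used no replicate block, and the fit with one is among the alternatives.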

Additional observations from a re-analysis of the deposited data

Results flagged for a closer look

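For 9 results the change at 24 h and the change at 2 h, both relative to 0 h, differed by the limma test of 24 h against 2 h. At the level of the gene these were SNHG1, with a log2 difference of -0.51, and SNHG15, with -0.96; both lie lower at 24 h. The 1150-base form of SNHG1 near ENST00000541578 differed by -2.48 in level and by -2.15 in usage. In SNHG15, ENST00000579383 differed by -2.17 and ENST00000585030 by -1.93 in level. In SNHG6, ENST00000521127, typed as a retained intron, differed by -1.26 in level and by -1.29 in usage. The usage of GAS5 ENST00000450589 differed by 0.86 in the other direction. Among the 112 host transcripts past the filter, that is 4 levels lower and none higher, against 5.24% and 3.72% of all transcripts, and 1 usage gained and 2 lost, against 3.54% and 3.72%.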

How the results depend on the processing

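SNHG1, SNHG12 and SNHG15 stayed lower at 24 h at an adjusted p under 0.01 (limma) in all 24 alternatives. The 2 hosts called higher at 24 h became 0 under TPM over all transcripts, with no filter on low FPKM and with the 6 libraries of the contrast alone. Under TPM over transcripts of at least 300 bases both lost the call (GAS5 0.0127, ZFAS1 0.012) and SNHG3 alone was called (1 host, 0.0081). With a threshold of adjusted p alone, in place of p and fold, 2 (under 0.01) or 3 (under 0.05) were higher and 3 lower at 24 h in place of 0 and 1, and 2 lower since 2 h in place of 0. TPM over all transcripts called 3 hosts lower at 24 h by p and fold and 1 at 2 h (SNHG15, -1.68), and 0 in place of 2 since 2 h by p. Since 2 h, TPM over transcripts of at least 300 bases and class = alone called 1 by p and fold, and class = alone called 1 by p. TPM over all transcripts reversed SNHG3 (-0.33), SNHG5 (-0.71), SNHG6 (-0.69), SNHG8 (-0.75 at 24 h, -0.88 at 2 h, -0.43 at 1 h), GAS5 (-0.36), ZFAS1 (-0.28), the hosts' median (-0.73) and that of the ribosomal proteins (-0.50); the cause was not tested. With a pseudocount of 0.1, 5 transcripts gained and 2 lost usage. With class = alone the retained-intron share of SNHG1 differed by -1.84 points. With 1 library left out, the hosts called at 24 h numbered 0 to 3 higher and 3 lower, those lower since 2 h 1 to 2 by p and 0 to 1 by p and fold, transcripts higher 3 to 5 and lower 3 to 7, and usage gained 4 to 9 and lost 2 to 9; SNHG5 ranged from -0.0167 (without 24 h replicate 2) to 0.315 and the SNHG1 share from -1.86 to 3.41 points. Of the 27 transcript calls at 24 h (11 in level, 16 in usage), 9 were kept without each library in turn.

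With the replicate number as a block, 1 host was higher and 4 lower at 24 h, 5 transcripts higher and 7 lower, and 9 gained and 6 lost usage. SNHG7 was then called (limma adjusted p = 0.00558, range over its alternatives 0.00558 to 0.179) and GAS5 was not (0.0138, 0.00232 to 0.538). Deviations of libraries with the same number correlated by -0.000785 to 0.242 between 0 h and 24 h and by -0.00324 to 0.129 between 2 h and 24 h. In both, the lowest value was that of replicate 1 and the highest that of replicate 3. Whether the numbers pair libraries in the comparisons with 24 h is therefore not settled. Between 0 h and 1 h the 3 values were 0.0954 to 0.340, with 1 under 0.1. Between 0 h and 2 h all 3 were above 0.1, and there the block called no host (SNHG15 adjusted p = 0.0347) and 6 genes in place of 4. The paper gives the average and range of mapped read pairs per sample, but the fragments behind low transcripts were not counted here.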
